A study of Homo sapiens with 33 samples.

Results

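Cells of the human acute promyelocytic leukaemia line NB4 that had spent 24 h in culture with DMSO were compared with untreated NB4 cells taken at 0 h. The comparison uses every library whose label gives DMSO and 24 h and every library labelled as untreated, 3 of each, which is 6 of the 33 RNA-seq libraries of the series. NB4 was established from a patient with acute promyelocytic leukaemia and carries the PML-RARA fusion, which holds the cells at the promyelocyte stage. The series followed NB4 cells under all-trans retinoic acid (ATRA), which releases that block, or under DMSO, the solvent given to the control cultures, in biological triplicate. The concentration of DMSO, and whether the 0 h cells were handled before harvest as the 24 h cells were, was not given in the sources used here. None of the 6 libraries had ATRA, and all come from a single line. Because no untreated culture was sampled at 24 h, exposure to DMSO and a day in culture cannot be told apart.

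A myeloid cell's RNA answers changes of culture on several time scales. Immediate-early genes such as FOS and EGR1 encode transcription factors whose short-lived mRNAs rise within minutes of a growth factor or stress signal and then fall. Dual-specificity phosphatases and Sprouty proteins damp the MAP kinase pathway that drives them. Slower programs follow the supply of nutrients and sterols, the load of unfolded protein in the endoplasmic reticulum, the cell cycle, and the maturation of granules and of the superoxide-generating oxidase.

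Total counts ranged from 18341456 to 33184728 per library in the 6 libraries. The sequencing lane followed the groups: the 3 untreated libraries, like those at 4 h and 12 h in DMSO, were run on lane 4, whereas replicate 2 at 24 h was run on lane 2 and replicates 4 and 5 on lane 3. Lane and group therefore cannot be told apart in the 24 h comparison, while the 4 h and 12 h comparisons with untreated cells lie within lane 4 and share the same untreated libraries. Within the 24 h group, replicates 4 and 5, both on lane 3, were closer to each other than to replicate 2. The chi-square per degree of freedom was 2.915 between replicates 4 and 5, against 22.664 and 18.029 between replicate 2 and these. Large values also occurred in other groups, up to 15.147 between untreated libraries, 18.948 at 12 h and 49.106 at 4 h in DMSO. Counts are given with and without replicate 2 at 24 h below. The libraries expressed the promyelocyte genes that belong to the label, with myeloperoxidase (MPO) at 10950, 10730 and 11810 CPM in untreated cells (CPM, a gene's share of the normalised library) and proteinase 3 (PRTN3) at 969.9, 968.2 and 1064 CPM, while KIT was at 0 in all 3. Globin genes HBA1, HBA2 and HBB, the T-cell genes CD3E and CD3G and the macrophage complement genes C1QB and C1QC were at 0 in all 6 libraries. Other members of these marker lists were not: C1QA had counts but stayed under 1 CPM, and CD4 averaged 59.3 CPM in untreated cells. The sums of the lists are given with the other markers below.

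After 24 h in DMSO, 4390 of 22971 tested genes (19.1%) differed from untreated cells at an adjusted p under 0.05, by the quasi-likelihood test of edgeR, adjusted over all tested genes by the Benjamini-Hochberg method. Of these, 2267 (9.87% of tested genes) were higher and 2123 (9.24%) were lower. Every count of list members at 24 h against untreated cells below is to be read beside these shares. The median change of all tested genes was 0.00 on the log2 scale, and 0.48 was the median size among the genes that passed. A change of at least 2-fold was found for 989 genes, 736 higher and 253 lower. With only genes at an average log2 CPM of at least 1 over all 33 libraries kept, the count was 338. The 3 values at 24 h did not overlap the 3 untreated values for 8283 genes (36.1%), which include 4166 of the 4390 genes that passed (94.9%). Without replicate 2 at 24 h, 4072 genes passed. Leaving out replicate 4 or 5 at 24 h cost more calls, with 3377 and 3083 genes left.

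**Figure D1:**
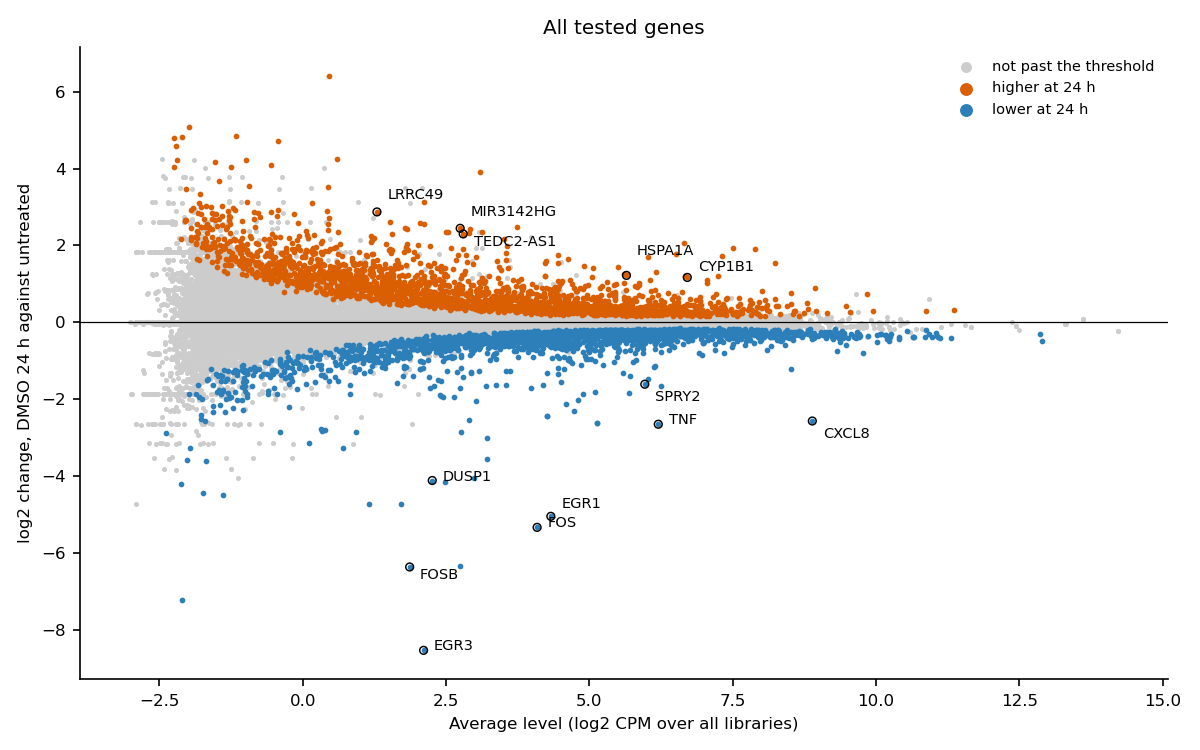
Log2 change in DMSO at 24 h against untreated cells (vertical axis) for every tested gene, against its average level in log2 CPM over all 33 libraries (horizontal axis). Orange and blue points passed the adjusted p threshold of 0.05. The labelled genes at the bottom, EGR3, FOSB, FOS and EGR1, lie below -5, beyond all the labelled genes that rose.

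Among genes at an average log2 CPM of at least 1, the 6 that fell furthest were immediate-early transcription factors. Of 24 tested genes on the list of AP-1, EGR and related factors, 23 fell against 9.24% of all genes, and the remaining gene, IER3, did not pass. The list's log2 changes ran from -8.54 to -0.05 with a median of -1.68, beside 0.00 over all tested genes. In 23 of the 24 the 24 h values lay wholly below the untreated ones. Over all tested genes, 36.1% had no overlap, in either direction. Without replicate 2 at 24 h, 22 fell. The 2 partner subunits of the AP-1 factor, Fos and Jun proteins, fell together, as did the zinc-finger EGR factors.

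FOS (ENSG00000170345, chromosome 14, 75277285 to 75292138 on GRCh38, plus strand), the founding Fos subunit of AP-1, was at 74.1, 74.9 and 70.9 CPM in untreated replicates 2, 4 and 5 and at 1.501, 1.555 and 2.26 CPM at 24 h. Every 24 h library lay far below every untreated one, a log2 change of -5.33 ± 0.14 (SE) with an adjusted p of 3.403e-28. FOSB, a second Fos subunit, went from 27.9, 28.2 and 24.7 CPM to 0.482, 0.292 and 0.251 CPM, with a log2 change of -6.37. JUN, the main partner of the Fos proteins, kept more of its level. Its untreated values of 38.98, 38.1 and 41.2 CPM compare with 10.99, 12.3 and 10.7 CPM at 24 h, a log2 change of -1.80 ± 0.10.

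EGR1 (ENSG00000120738, chromosome 5, plus strand), a factor that serum and kinase signals induce, was at 56.7, 52.3 and 63.6 CPM in untreated cells. At 24 h it was at 2.36, 1.39 and 1.67 CPM, again without overlap, and the log2 change was -5.05 ± 0.12 (adjusted p 1.316e-29). EGR2, which also takes part in macrophage development, went from 8.11, 8.001 and 8.72 CPM to 0.107, 0.130 and 0.0629 CPM, a log2 change of -6.33. EGR3 was nearly gone: the untreated libraries held 255, 421 and 566 counts and the 24 h libraries 1, 0 and 2. Scaled for library size that is a ratio of 426.8 with an exact 95% interval of 145.7 to 2072, which covers counting error only, and 21.2% of EGR3's exon length is shared with another gene on its strand. The nuclear receptor NR4A3 fell by 4.74 on the log2 scale and KLF4, a factor of monocyte development, fell by 1.14.

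FOS and EGR1 were already low at the first sampled time. FOS averaged 1.48 CPM at 4 h and 1.90 CPM at 12 h in DMSO, and EGR1 averaged 1.95 and 1.66 CPM. In the immediate-early list 22 of 24 genes were lower than untreated at 4 h, where 15.7% of all tested genes were lower, and 22 at 12 h, where 11.5% were. The list's median log2 change was -1.52 at 4 h, -1.72 at 12 h and -1.68 at 24 h, and the 4 h and 12 h libraries were run on lane 4 like the untreated ones. Against 4 h, 7 genes of the list were lower still at 24 h, where 6.09% of all tested genes were, and 2 were higher. EGR3 differed from 4 h by -2.97 ± 0.73 on the log2 scale (adjusted p 0.00418), FOSB by -1.20 ± 0.37 and JUN by -0.53 ± 0.10, whereas FOS (0.27 ± 0.21) and EGR1 (-0.17 ± 0.17) did not pass. Between 12 h and 24 h a single gene of the list passed as lower.

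**Figure D2:**
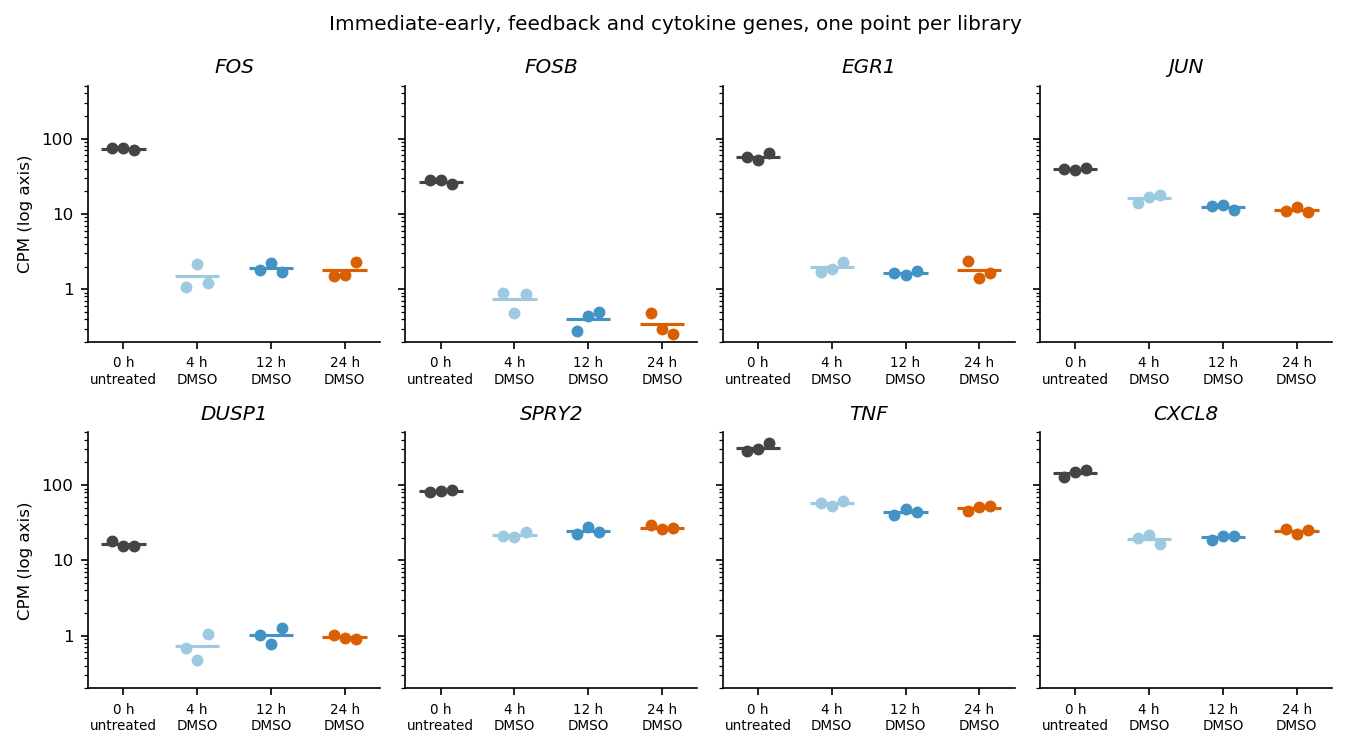
CPM on a log axis for 4 immediate-early factors, 2 feedback inhibitors of the MAP kinase pathway and 2 cytokines, in untreated cells and after 4, 12 and 24 h in DMSO; points are libraries and bars are group means. In all 8 panels the untreated libraries lie above the 9 DMSO libraries, and the DMSO times lie close to one another.

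Several genes that restrain MAP kinase signalling were lower too. On the list of dual-specificity phosphatases, Sprouty genes and their relatives 9 of 16 tested genes fell, also without replicate 2 at 24 h, and 7 did not pass, with a list median of -0.41. DUSP1, a nuclear phosphatase of p38, JNK and ERK kinases, went from 18.3, 15.7 and 15.8 CPM to 1.02, 0.940 and 0.911 CPM (log2 change -4.12 ± 0.22). SPRY2, an inhibitor of receptor tyrosine kinase signalling, went from 80.3, 84.3 and 85.2 CPM to 29.1, 25.8 and 27.1 CPM (-1.61 ± 0.07). DUSP6, the cytoplasmic phosphatase of ERK, fell by 0.81, with 24.3% of its exon length shared with another gene. None of these 3 genes had overlapping groups.

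Promoter stretches of EGR1 and DUSP1 are shown as examples of 1 factor and 1 feedback phosphatase that fell. Both are the 200 bases before the start of the gene in RefSeq on GRCh38.p14, written 5' to 3' on the gene's strand, at chr5:138465279-138465478 (plus) for EGR1 and chr5:172771196-172771395 (minus) for DUSP1. Capitals mark in EGR1 the CArG boxes, the letters bound by serum response factor, which begin 105 and 83 bases before the start, and in DUSP1 the cyclic AMP response element TGACGTCA, which begins 125 bases before the start.
EGR1: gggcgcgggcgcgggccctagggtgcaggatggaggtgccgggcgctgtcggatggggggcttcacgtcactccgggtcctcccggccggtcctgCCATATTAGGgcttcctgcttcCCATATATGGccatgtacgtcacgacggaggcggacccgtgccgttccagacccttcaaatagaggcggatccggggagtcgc
DUSP1: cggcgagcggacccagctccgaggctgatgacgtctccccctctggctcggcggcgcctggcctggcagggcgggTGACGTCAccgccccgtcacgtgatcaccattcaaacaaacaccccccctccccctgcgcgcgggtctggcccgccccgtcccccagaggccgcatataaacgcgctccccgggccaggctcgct
In windows of 250 bases before to 50 after the start, searched on both strands, a CArG box was found in 1.29% of 27305 RefSeq promoters and in 1 of the 19 immediate-early genes with an entry (5.26%). A cyclic AMP response element was found in 1.98% of all promoters and in 2 of those 19 (10.5%). A match is a run of letters, not a measured binding site.

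Inflammatory cytokines did not move as a block. Of 22 tested chemokines and cytokines, 5 fell and 5 rose, beside 9.24% and 9.87% of all genes, and the list median was 0.26; without replicate 2 at 24 h, 4 rose. TNF, an inflammatory cytokine, was at 281.9, 300.3 and 360.4 CPM untreated and at 44.7, 51.6 and 53.4 CPM at 24 h, a log2 change of -2.65 ± 0.11 (adjusted p 3.492e-21). CXCL8, the neutrophil-attracting chemokine, went from 129.6, 150.2 and 157.7 CPM to 26.4, 22.7 and 24.98 CPM, a log2 change of -2.57 ± 0.11. Neither gene's groups overlapped. The macrophage chemokines CCL3 and CCL4 fell by 2.62 and 2.45, but 98.3% and 90.3% of their exon length is shared on the same strand and they have near-identical copies, CCL3L3 (-3.01) and CCL4L2 (-4.05), so the split of reads among the 4 is uncertain.

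The inhibitors of NF-kB, the pathway upstream of many cytokines, were also divided. On the list of NF-kB feedback genes 3 of 14 rose and 3 fell, 21.4% each, beside 9.87% and 9.24% of all genes. NFKBIA, the classical cytoplasmic inhibitor, went from 90.8, 98.6 and 102.4 CPM to 53.1, 54.1 and 54.7 CPM (-0.85 ± 0.07), and NFKBIZ, a nuclear cofactor, fell by 1.03. TNFAIP2, a TNF-induced gene, rose from 40.2, 36.8 and 45.8 CPM to 63.0, 72.1 and 72.0 CPM (0.76 ± 0.09), and NFKBIE rose by 0.47. SOCS3, the feedback inhibitor of cytokine receptor signalling, fell by 3.55, from 8.32, 7.79 and 8.24 CPM to 0.643, 0.421 and 0.974 CPM.

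Outside these families, the coagulation and fibrinolysis list had 3 lower and 2 higher genes of 12, the latter including PLAU, the urokinase-type plasminogen activator, which rose by 0.49. RASGEF1B, a guanine nucleotide exchange factor, had 86 counts in the untreated libraries and 3 at 24 h, a scaled ratio of 29.55 (exact 95% interval 9.78 to 146.1). Among the genes that promote cell death, PMAIP1 went from 27.1, 27.3 and 26.02 CPM to 10.1, 8.002 and 8.27 CPM (-1.62 ± 0.11), and the survival factor MCL1 fell by 0.45. In all, 6 of 16 BCL2-family genes fell (37.5%, beside 9.24% of all genes).

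The 12 genes that rose most among named genes under the conditions of choice were of mixed kind and low abundance in these 6 libraries. The conditions were an average log2 CPM of at least 1, under 25% of exon length shared and no overlap between the groups. That average was taken over all 33 libraries, those with ATRA included. LRRC49, which encodes a leucine-rich repeat protein, rose from 0.785, 0.460 and 0.507 CPM to 3.06, 3.69 and 5.50 CPM (2.87 ± 0.28). TNFRSF9, the costimulatory receptor 4-1BB, rose by 2.49 and TGM3, a transglutaminase, by 2.16.

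Several of the others are non-coding loci. MIR3142HG, the host of a miRNA pair, rose from 1.52, 1.28 and 1.55 CPM to 6.65, 8.62 and 8.20 CPM (2.45 ± 0.17), MIR124-1HG rose by 2.34, TEDC2-AS1 by 2.30 and LINC02918 by 2.19. The locus named MIR193A, which rose by 2.36, spans 31559224 to 31601681 on chromosome 17 in the authors' annotation, so its counts are those of a long transcript and not of the mature miRNA. PAG1 and SLC6A12 rest on few reads: PAG1 had 12 counts at 24 h and 1 untreated, a ratio of 11.64 (1.722 to 497.6), and SLC6A12 had 14 and 2, a ratio of 6.79 (1.56 to 61.56). PAG1 lost its call without untreated replicate 2 (adjusted p 0.06743), untreated replicate 4 (0.1043) or replicate 4 at 24 h (0.09968). SLC6A12 lost its call without untreated replicates 2 (0.1073) or 4 (0.1683), or without replicates 2 (0.0743) or 4 (0.1508) at 24 h. Of the 14 alternative settings that gave a value for SLC6A12, it passed in 8. CLEC17A rose by 2.25 but stayed under 0.4 CPM. Its average log2 CPM of 1.188 over all 33 libraries came from libraries outside this comparison.

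By annotation class, shares were read against the 9.87% of all tested genes that rose and the 9.24% that fell. Of 13418 protein-coding genes tested, 1163 rose (8.67%) and 1762 fell (13.1%). Of 1340 antisense genes, 225 rose (16.8%) and 34 fell (2.54%), with a median log2 change of 0.24. Of 1129 lincRNA genes 140 rose (12.4%) and 43 fell (3.81%), with a median of 0.14. Among 3044 loci known only from the FANTOM CAT annotation 392 rose (12.9%) and 56 fell (1.84%), with a median of 0.33. Without replicate 2 at 24 h the counts that rose were 205, 122 and 337 in these 3 non-coding classes. These classes are of low abundance, and with only genes at an average log2 CPM of at least 1 kept, 153 antisense, 97 lincRNA and 123 FANTOM CAT genes rose and 18, 26 and 11 fell. The count of FANTOM CAT genes that fell was 27 without untreated replicate 5 and 30 without replicate 4 at 24 h, and that of antisense genes was 22 without untreated replicate 4. The share of all counts that fell on FANTOM CAT loci was 0.361% to 0.386% in the untreated libraries and 0.419% to 0.461% at 24 h, with no overlap; whether the lane plays a part in this share was not tested.

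**Figure D3:**
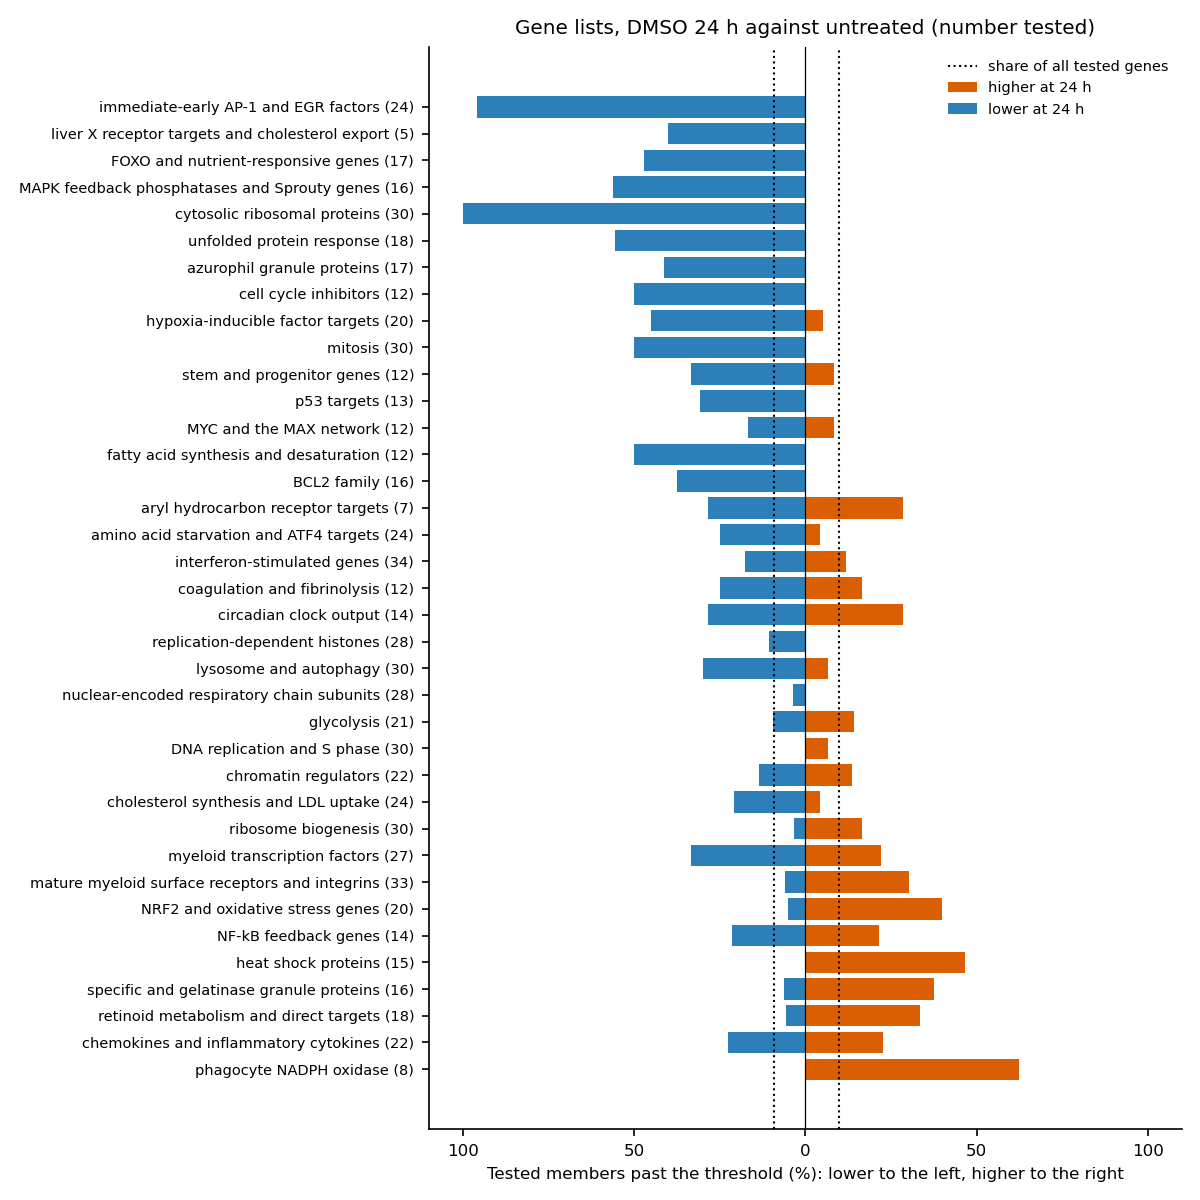
Percent of the tested members of each gene list that passed as higher (orange, right) or lower (blue, left) at 24 h in DMSO, with the number tested in parentheses and lists ordered by median log2 change. Dotted lines are the shares over all tested genes, 9.87% higher and 9.24% lower; ribosomal proteins (100%) and immediate-early factors (95.8%) reach furthest left, and the phagocyte oxidase (62.5%) furthest right.

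Genes of sterol synthesis had returned close to the untreated level by 24 h after a fall at the earlier times. Of 24 tested genes of cholesterol synthesis and LDL uptake, 19 were lower than untreated at 4 h and 21 at 12 h. Of all tested genes, 15.7% and 11.5% were lower at these times. At 24 h, 5 of the 24 were lower and 1 higher. The list medians were -0.46, -0.63 and 0.00 at 4, 12 and 24 h. Tested directly, 17 of the 24 were higher at 24 h than at 12 h, where 0.683% of all tested genes were higher, and 18 were higher than at 4 h, where 6.87% were. The count of 17 was the same without replicate 2 at 24 h. The 12 h libraries were on another lane than the 24 h libraries, so time and lane cannot be told apart in that step.

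INSIG1 (ENSG00000186480, chromosome 7, plus strand), the membrane protein that retains the sterol-regulated SREBP factors in the endoplasmic reticulum and is itself their target, was at 256.1, 254.2 and 254.8 CPM untreated. It averaged 62.8 CPM at 4 h and 74.7 CPM at 12 h, and was at 212.5, 189.3 and 180.5 CPM at 24 h. The 24 h values lay above all 12 h values (78.2, 73.7 and 72.3 CPM) and below all untreated ones: 1.38 ± 0.07 on the log2 scale above 12 h (adjusted p 4.925e-18) and -0.39 ± 0.06 against untreated. HMGCS1, which makes the substrate of the mevalonate pathway, was at 141.2, 155.0 and 138.9 CPM untreated, at 60.7, 51.5 and 55.3 CPM at 12 h and at 153.6, 129.9 and 121.9 CPM at 24 h. Its 24 h values overlapped the untreated ones, with a log2 difference of -0.10 ± 0.09 (adjusted p 0.4519).

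MVD, a later mevalonate enzyme, was the 1 gene of the list that was higher than untreated, by 0.48 ± 0.08. In fatty acid synthesis the return was less complete in count: 6 of 12 genes were still lower at 24 h, and 4 were higher than at 12 h. SCD, the stearoyl-CoA desaturase, averaged 314.3 CPM at 12 h and was at 591.4, 580.5 and 535.3 CPM at 24 h, below the untreated 727.3, 749.5 and 721.2 CPM (-0.36 ± 0.07), with 24.0% of its exon length shared.

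The promoters of INSIG1 and HMGCS1 are shown because both genes rose between 12 h and 24 h. They are the 200 bases before the RefSeq start on GRCh38.p14, at chr7:155297678-155297877 (plus) and chr5:43313413-43313612 (minus), written 5' to 3' on the gene's strand. Capitals mark the box CCAAT, or ATTGG on the other strand, the letters bound by the factor NF-Y, which begins 170 bases before the start in INSIG1 and 155 and 100 bases before it in HMGCS1.
INSIG1: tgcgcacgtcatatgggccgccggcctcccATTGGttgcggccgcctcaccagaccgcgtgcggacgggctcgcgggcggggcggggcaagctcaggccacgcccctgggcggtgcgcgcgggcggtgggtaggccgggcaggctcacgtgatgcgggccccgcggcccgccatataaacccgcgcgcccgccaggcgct
HMGCS1: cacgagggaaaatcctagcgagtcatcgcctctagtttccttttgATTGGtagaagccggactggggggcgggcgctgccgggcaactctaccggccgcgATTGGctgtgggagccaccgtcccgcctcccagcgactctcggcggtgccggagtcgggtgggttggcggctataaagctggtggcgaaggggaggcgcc
A CCAAT box was found in 15 of the 18 sterol genes with an entry (83.3%), against 35.7% of all 27305 promoters.

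**Figure D4:**
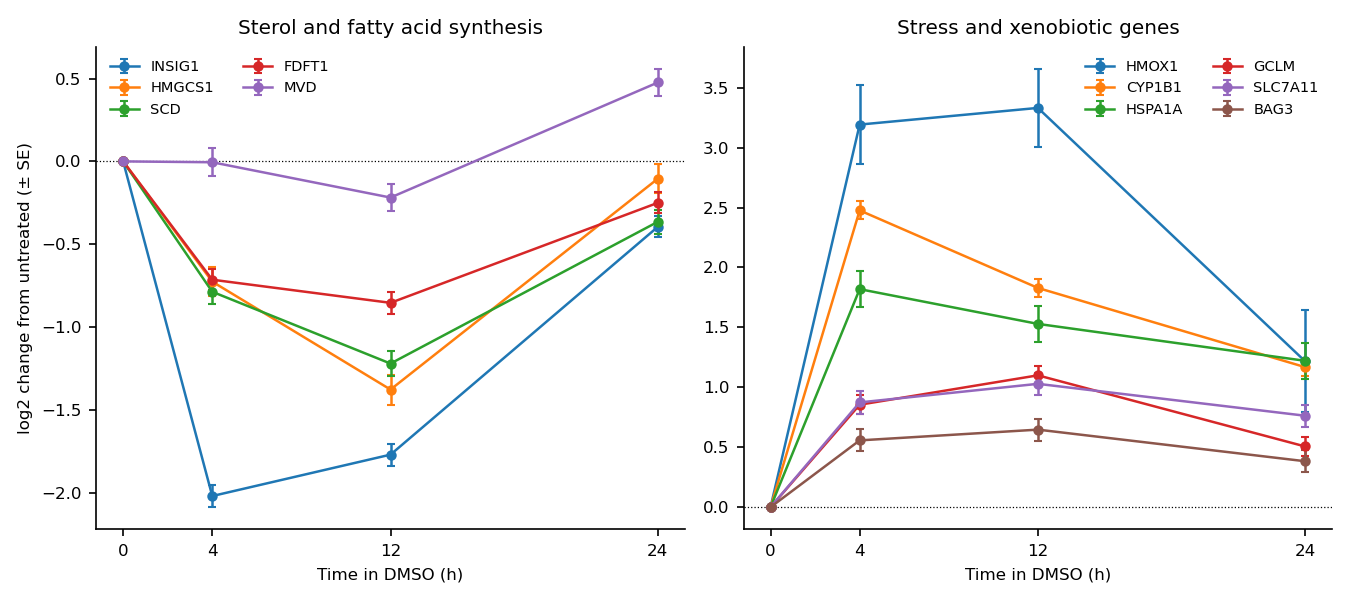
Log2 change from untreated cells (vertical axis, with its standard error) at 4, 12 and 24 h in DMSO, for genes of sterol and fatty acid synthesis (left) and stress and xenobiotic genes (right). On the left INSIG1 goes from -1.77 at 12 h to -0.39 at 24 h; on the right CYP1B1 declines from 2.48 at 4 h to 1.17 at 24 h. The vertical scales of the panels differ.

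Few genes passed between 12 h and 24 h in the main fit. Between these times 227 genes (0.988%) differed, 157 higher and 70 lower (0.305%), and 172 genes differed without replicate 2 at 24 h. The count depends on the fit: DESeq2 gave 353, and the 2 groups alone with replicate number as a block gave 1367. The median size among the 227 was 0.493 on the log2 scale, beside 0.48 among genes that differed from untreated cells. Of the 4390 genes that differed from untreated cells at 24 h, 124 also differed from 12 h. Against 4 h, 2977 genes (13%) differed, 966 of them among the 4390. Among genes higher than untreated at 24 h, 180 passed as below their 4 h level and 295 as above it. Among genes lower than untreated, 249 passed as above their 4 h level and 242 as below it. The same 24 h libraries enter all these tests. The shared counts and these splits are therefore not independent of how the genes were chosen.

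Several stress genes that were high early in DMSO stood lower at 24 h than at 12 h. CYP1B1, a monooxygenase induced by the aryl hydrocarbon receptor, averaged 219.9 CPM at 4 h and 140.5 CPM at 12 h, and was at 93.3, 79.9 and 93.4 CPM at 24 h. That was still above the untreated 39.1, 41.6 and 37.8 CPM in every library (1.17 ± 0.07, adjusted p 3.103e-15) and below 12 h by a log2 difference of -0.66. Of the 7 tested genes of this receptor's list 2 rose and 2 fell, among the latter the receptor AHR itself. Of 20 tested genes of the NRF2 oxidative stress list 8 rose at 24 h and 1 fell, and 6 were lower than at 12 h, where 0.305% of all genes were; without replicate 2 at 24 h, 3 were.

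GCLM, a subunit of the enzyme that starts glutathione synthesis, averaged 47.9 CPM at 12 h and was at 30.9, 29.9 and 34.3 CPM at 24 h, above 23.9, 21.6 and 21.7 CPM untreated (0.51 ± 0.08). SLC7A11, the cystine transporter, rose by 0.76. HMOX1, haem oxygenase, averaged 2.13 CPM at 4 h and 2.35 CPM at 12 h and was at 0.482, 0.518 and 0.597 CPM at 24 h, beside 0.419, 0.106 and 0.222 CPM untreated. Its excess over untreated cells passed narrowly (1.22 ± 0.43, adjusted p 0.03909). It did not pass without untreated replicate 4 (0.2414) or 5 (0.1067), or without replicate 4 (0.07496) or 5 (0.1337) at 24 h. Of all 16 alternative settings, HMOX1 passed in 10.

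Part of the heat shock genes rose, and part of the genes of the unfolded protein response in the endoplasmic reticulum fell. Of 15 tested heat shock genes 7 rose and the other 8 did not pass, 6 of the 15 log2 changes were below 0, and without replicate 2 at 24 h 6 rose. CHORDC1, an HSP90 co-chaperone, went from 64.0, 64.8 and 57.1 CPM to 103.5, 83.1 and 91.3 CPM (0.58 ± 0.11). HSPA1A, the inducible HSP70, rose from 23.2, 22.6 and 23.9 CPM to 52.8, 51.6 and 58.0 CPM (1.22 ± 0.15), but shares 77.2% of its exon length and has reads in common with the near-identical HSPA1B (1.23). Of 18 tested genes of the unfolded protein response, 10 fell and the other 8 did not pass, all 18 log2 changes were below 0, and the median was -0.30; without replicate 2 at 24 h, 11 fell.

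XBP1, a transcription factor of that response, was at 261.4, 263.5 and 272.1 CPM untreated and at 184.0, 182.9 and 176.3 CPM at 24 h (-0.55 ± 0.06, adjusted p 2.228e-08). HSPA5, the chaperone BiP, went from 539.6, 593.9 and 552.9 CPM to 433.4, 433.1 and 431.7 CPM (-0.38 ± 0.07). CALR, the lectin chaperone calreticulin, fell by 0.41 and PDIA6, a disulfide isomerase, by 0.34. The groups of these genes did not overlap. The list was lower at the earlier times too, with 12 genes at 4 h and 13 at 12 h, beside 15.7% and 11.5% of all tested genes.

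The promoters of HSPA5 and XBP1 are shown because the letters of the ER stress element are frequent in this list. They are the 200 bases before the RefSeq start on GRCh38.p14, at chr9:125241344-125241543 and chr22:28800570-28800769, both on the minus strand and written 5' to 3' on it. Capitals mark the element, CCAAT, then 9 bases, then CCACG, which begins 66 bases before the start of HSPA5 and 52 before that of XBP1 and contains a CCAAT box.
HSPA5: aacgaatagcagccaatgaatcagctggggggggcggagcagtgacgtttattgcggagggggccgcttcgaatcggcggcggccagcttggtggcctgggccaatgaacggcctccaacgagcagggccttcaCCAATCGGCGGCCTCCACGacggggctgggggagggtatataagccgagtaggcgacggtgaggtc
XBP1: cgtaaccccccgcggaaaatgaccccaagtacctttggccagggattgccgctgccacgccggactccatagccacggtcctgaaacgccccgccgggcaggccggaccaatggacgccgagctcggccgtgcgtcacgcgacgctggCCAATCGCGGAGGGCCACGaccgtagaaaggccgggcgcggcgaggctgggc
The element was found in 6 of the 17 genes of the list with an entry (35.3%) and in 0.0806% of all 27305 promoters. The CCAAT box alone was found in 16 of the 17 (94.1%), against 35.7%.

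Ribosomal protein genes fell slightly and together. All 30 tested cytosolic ribosomal protein genes were lower, by -0.24 to -0.51 on the log2 scale with a median of -0.34, and 28 passed without replicate 2 at 24 h. RPL3, a protein of the large subunit, went from 1311, 1319 and 1335 CPM to 930.0, 935.8 and 918.9 CPM (-0.51 ± 0.07). All 30 were also lower at 4 h and at 12 h, within lane 4, where 15.7% and 11.5% of all tested genes were lower. Genes that build ribosomes in the nucleolus were not lower as a group, with a median of 0.04. Of 30 ribosome biogenesis genes 5 rose (16.7%, beside 9.87% of all genes), among them UTP20 and RRP12 by 0.34 and 0.31, and 1 fell (3.33%, beside 9.24%). Over the settings tried 2 to 6 rose and 0 to 4 fell. MYC, a regulator of both sets, went from 594.1, 623.1 and 646.0 CPM to 436.2, 471.0 and 452.6 CPM (-0.45 ± 0.08).

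Some mitotic genes fell by small amounts, while few genes of DNA replication passed the test. Of 30 tested mitotic genes 15 fell and 15 did not pass, with a median of -0.22 and 28 of 30 log2 changes below 0, and 14 fell without replicate 2 at 24 h. NDC80, a kinetochore protein, went from 48.3, 52.6 and 48.5 CPM to 40.5, 37.2 and 37.3 CPM (-0.38 ± 0.09), and KIF2C, a microtubule depolymerase, fell by 0.32. CCNB1, the mitotic cyclin, was at -0.20 ± 0.08 (adjusted p 0.05415), and the proliferation marker MKI67 at 0.03 ± 0.08. The count of mitotic genes that fell ranged from 9 to 23 over the settings tried. Of 30 genes of DNA replication and S phase 2 rose (6.67%, beside 9.87% of all genes), CCNE2 by 0.64 and CCNE1 by 0.36, the S-phase cyclins. The other 28 did not pass. Of all 16 alternative settings, CCNE1 passed in 9. CCNE1 did not pass without any 1 of the untreated replicates 2, 4 and 5 (adjusted p 0.06711, 0.2633 and 0.05157) or of the 24 h replicates 4 and 5 (0.2015 and 0.1531). Among inhibitors of the cycle 6 of 12 fell, including the antiproliferative genes BTG1 (-0.70) and TOB1 (-0.72), and 6 did not pass. Of these CDKN1A went the other way, at 0.65 ± 0.24 (adjusted p 0.05026) without overlap between the groups, after 1.32 at 4 h and 1.11 at 12 h.

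The promoter of CCNB2, a mitotic cyclin chosen after its values were seen, shows the letters that mitotic genes share. It is the 200 bases before the RefSeq start on GRCh38.p14 at chr15:59104946-59105145, plus strand, 5' to 3'. Capitals mark CCAAT boxes that begin 120, 87 and 54 bases before the start and the cell cycle homology region TTTGAA, which begins 29 bases before it.
CCNB2: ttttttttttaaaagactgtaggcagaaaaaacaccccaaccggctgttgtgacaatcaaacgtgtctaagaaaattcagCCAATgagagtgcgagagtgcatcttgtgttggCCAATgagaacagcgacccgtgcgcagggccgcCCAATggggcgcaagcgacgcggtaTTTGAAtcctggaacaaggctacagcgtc
TTTGAA was found in 18 of the 25 mitotic genes with an entry (72%) and in 15.4% of all promoters, and CCAAT in 20 of the 25 (80%).

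Among genes that respond to nutrient supply and to low oxygen, more fell than rose. On the FOXO and nutrient-responsive list 8 of 17 genes fell (7 without replicate 2 at 24 h), with a median of -0.47. KLF9, a hormone-responsive repressor, went from 12.6, 9.95 and 9.45 CPM to 4.02, 4.54 and 3.24 CPM (-1.43 ± 0.16), and CITED2, a cofactor that competes with hypoxia-inducible factors, went from 101.3, 94.7 and 101.1 CPM to 48.2, 49.9 and 52.3 CPM (-0.98 ± 0.08). CCNG2, an atypical cyclin raised by FOXO factors, had come back from 1.36 CPM at 4 h to 3.91, 2.79 and 3.17 CPM, below the untreated 4.97, 6.55 and 5.42 CPM. Of 20 hypoxia-inducible factor targets 9 fell and 1 rose, but without replicate 5 at 24 h 4 fell, and the 1 gene that rose did not pass without replicate 2 or 5 at 24 h or without any 1 of the 3 untreated replicates. Among those that fell was VEGFA, the vascular growth factor (-0.49 ± 0.09), while BNIP3, a mitophagy receptor, was at 0.11 ± 0.09. TXNIP, which restrains glucose uptake, was at 0.20 ± 0.12 (adjusted p 0.2634). The genes of amino acid starvation were mixed: 6 of 24 ATF4 targets fell (25%, beside 9.24% of all genes), with the serine synthesis enzyme PHGDH at -0.44, and 1 rose. ASNS, with 69.2% of its exon length shared, and TRIB3 were both at -0.04.

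Some genes of the mature phagocyte rose. Of 8 tested subunits of the phagocyte NADPH oxidase and its partners 5 rose and 3 did not pass, and the same count was found without replicate 2 at 24 h. CYBB, the catalytic subunit, went from 215.0, 212.0 and 190.7 CPM to 290.2, 273.0 and 272.2 CPM (0.44 ± 0.08), and RAC2, the GTPase that activates the complex, from 52.6, 53.1 and 61.4 CPM to 71.8, 82.4 and 83.1 CPM (0.51 ± 0.08). NCF1, a cytosolic subunit, rose by 1.90 but has pseudogene copies that can take or give reads. Of 33 surface receptors and integrins 10 rose, 2 fell and 21 did not pass, with a list median of 0.06. CR1, a complement receptor, was at 9.73, 12.1 and 12.1 CPM untreated and at 22.03, 21.2 and 22.8 CPM at 24 h (0.95 ± 0.09), and ITGAL, an integrin chain of leukocytes, rose by 0.93.

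Of 16 tested specific and gelatinase granule genes 6 rose and 1 fell, and 4 rose without replicate 2 at 24 h. MMP9, the gelatinase, went from 54.6, 47.8 and 55.7 CPM to 81.9, 91.9 and 99.6 CPM (0.79 ± 0.11), and FCN1, the lectin ficolin-1, from 10.2, 10.5 and 12.1 CPM to 22.8, 21.9 and 24.8 CPM (1.08 ± 0.09). Although no ATRA was added, 6 of 18 genes of retinoid metabolism and response rose (33.3%, beside 9.87% of all genes) and 1 fell (5.56%, beside 9.24%). STRA6, a retinol transporter, rose by 1.47 and CD38, an ectoenzyme that ATRA raises in these cells, by 0.66. The maturation factor CEBPE (0.21 ± 0.08, adjusted p 0.08025) and the granulocyte growth factor receptor CSF3R (-0.06 ± 0.09) did not pass.

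Of 17 tested azurophil granule genes 7 fell and 10 did not pass, and 5 fell without replicate 2 at 24 h. CTSG (ENSG00000100448, chromosome 14, 24573522 to 24576932, minus strand), the serine protease cathepsin G, went from 47.7, 48.0 and 44.0 CPM to 20.5, 20.9 and 20.2 CPM (-1.18 ± 0.10, adjusted p 4.042e-12). CST7, a protease inhibitor, fell by 0.59, and AZU1, the antimicrobial azurocidin, by 0.38. MPO was at 8434, 9642 and 9200 CPM at 24 h, below all untreated values, with a log2 change of -0.30 ± 0.10 (adjusted p 0.03815) that did not pass without untreated replicates 2 (0.06524) or 5 (0.1212), or without replicates 2 (0.1374) or 5 (0.07791) at 24 h. In bulk RNA a change in the share of cells of a kind and a change in RNA per cell cannot be told apart.

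**Figure D5:**
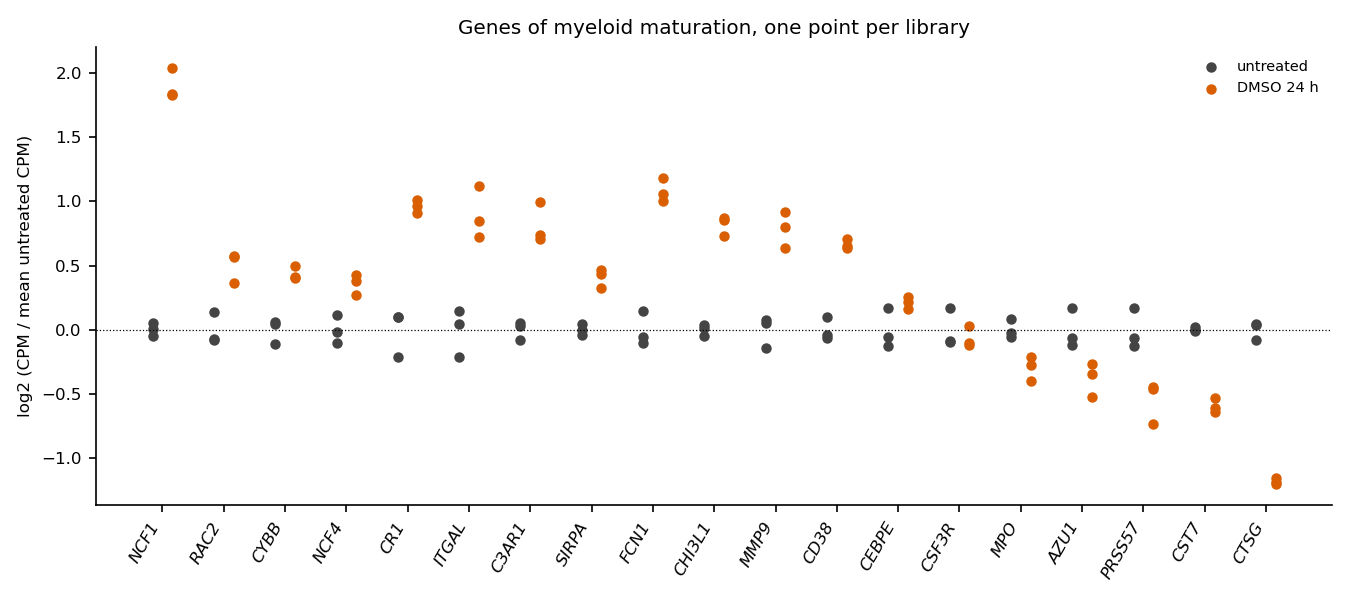
Log2 of CPM over the gene's mean untreated CPM for genes of myeloid maturation, one point per library, untreated in grey and DMSO 24 h in orange. The oxidase and receptor genes drawn on the left lie above 0 at 24 h, and CEBPE and CSF3R lie near it. The azurophil granule genes drawn on the right lie below it, CTSG furthest. From these 3 lists only members that passed are drawn. In the lists 3 of 8 oxidase, 21 of 33 receptor and 10 of 17 azurophil genes did not pass, and the 2 receptor genes that fell are not drawn.

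Markers of other cell types were measured beside these groups. The summed level of the 16 monocyte and macrophage markers was 89.3 to 104.2 CPM untreated and 99.8 to 114.9 CPM at 24 h, with 10 of the 16 under 1 CPM. Of the 11 tested 3 rose, FCN1 (1.08) and CSF1R (0.50) among them, and 2 fell, MS4A7 the furthest (-1.92). The 15 eosinophil, basophil and mast cell markers summed to 1080 to 1123 CPM and then to 723.8 to 778.4 CPM, with EPX, eosinophil peroxidase, lower by 0.49, PRG2 lower by 0.58, and 9 of the 15 under 1 CPM. Lymphocyte markers summed to 111.7 to 123.9 CPM and then to 93.5 to 107.0 CPM, and erythroid and megakaryocyte markers to 4.66 to 6.37 CPM and then to 3.32 to 3.99 CPM. Epithelial and fibroblast markers summed to 28.4 to 42.0 CPM and then to 23.9 to 28.6 CPM, the upper untreated value holding COL1A1 in replicate 2. The part of these markers in the changes above was not tested.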

How the data were processed

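RNA was prepared with a stranded total RNA kit and sequenced as paired reads, per the labels' protocols. Per the submitters' processing notes, Trimmomatic 0.36, STAR 2.5.2b and Subread 1.5.1 were used with GRCh38. The authors deposited 1 table of raw counts per gene for 33 libraries and 85160 genes, of which 26190 have FANTOM CAT identifiers. Per the file headers, featureCounts was run with strand and with reads over several genes counted for each, so genes that share exons share reads. The labels call the replicates biological, and p-values measure the spread between these cultures.

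Counts were fitted with edgeR 4.0.16 (R 4.3.3, limma 3.58.1) over all 33 libraries with 1 mean per group: filterByExpr kept 22971 genes, TMM factors ranged from 0.8273 to 1.108, and glmQLFTest p-values were Benjamini-Hochberg adjusted over all tested genes with a threshold of 0.05. SE is the log2 change divided by the root of F. CPM uses TMM-scaled library sizes. Alternatives were DESeq2 1.42.0, limma-voom, other scalings and filters, the 2 groups alone, a replicate block, and leaving out each library.

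Of 58970 Ensembl identifiers, 57447 had a type in GENCODE 29. Named genes were the 12 largest changes in each direction (average log2 CPM of at least 1 over all 33 libraries, under 25% shared exon length, no overlap). To these were added up to 4 called genes of smallest p per list, a core set, and the 4 strongest in each direction between 24 h and 12 h. The members and lists were chosen with earlier results of these data known, and the CArG box, the ER stress element, IER3 and CCNB2 after values were seen. Same-numbered replicates at 24 h and 0 h deviated with correlations of 0.2978, -0.1648 and 0.2558 for numbers 2, 4 and 5. Numbers 2 and 5 matched their own number best, while replicate 4 at 24 h matched untreated replicate 5 best (0.385). Whether equal numbers mark pairs was left undecided, and the main fit took no pairs. Counts with a replicate block are given below. Replicates are numbered as in the titles (2, 4 and 5); another label numbers them 1 to 3 in the same order in every group, which gives the same pairs. Results for some items are not reported here.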

Additional observations from a re-analysis of the deposited data

How the results depend on the processing

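The count of genes that differed from untreated cells at 24 h (4390) lay between 3680 (no filter) and 4841 (the 2 groups alone) under the unblocked alternatives with all libraries, and between 3083 (without replicate 5 at 24 h) and 4072 (without replicate 2) when 1 library was left out; those higher ranged from 1534 to 2115, those lower from 1468 to 1957 and those changed at least 2-fold from 795 to 967. The count changed at least 2-fold went from 989 to 338 when refitted at an average log2 CPM of at least 1. Against 12 h the count of 227 became 344 with that filter, 353 with DESeq2, 137 with the 2 groups alone, and 123 to 172 with 1 library left out. Against 4 h it went from 2977 to 1325 with the 2 groups alone and to 2048 to 2976 with 1 library left out. With replicate number as a block, 4762 genes (all libraries) or 5680 (2 groups alone) differed from untreated cells. In the 2-group fit with that block 1367 differed from 12 h and 1697 from 4 h. Replicate 2 at 24 h correlated best with its own number at 0 h, 4 h and 12 h, and replicate 5 did at 0 h and 4 h but not at 12 h. Replicate 4 at 24 h did at 12 h, and not at 0 h or 4 h. COL1A1 (-2.84) ranged from -3.485 to 0.36 with 1 library left out, the latter without untreated replicate 2 (adjusted p 0.8591); of the named genes that passed, 19 did not pass in at least 1 setting and 143 passed in every setting that gave a value; the cause of the other shifts was not tested. The scalings moved the median of all genes by at most 0.0125. Depth limits genes below about 0.1 CPM, where 3 counts or fewer decide a value.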
